A study of Mus musculus with 20 samples.

Results

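The genes described here encode the phase II conjugating enzymes of mouse liver: the UDP-glucuronosyltransferases (Ugt), the cytosolic sulfotransferases (Sult) and the glutathione S-transferases (Gst). Genes were taken by symbol (Ugt1 to Ugt3, Sult1 to Sult5, and Gst of the alpha, mu, pi, theta, omega, kappa and zeta classes, without named pseudogenes), and 47 of 62 such genes had at least 10 counts in at least 4 of the 20 libraries. The 47 comprise 16 Ugt, 11 Sult and 20 Gst genes, out of 55359 gene identifiers in the files, and all 47 were tested. The 15 genes that did not reach this minimum were Gsto2, Gstt4, Sult1c1, Sult2a1, Sult2a3, Sult2a4, Sult2a5, Sult2a6, Sult3a1, Sult3a2, Ugt1a10, Ugt1a2, Ugt1a8, Ugt2a1 and Ugt2a2.

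Poly(A) RNA was sequenced from frozen liver of male wild-type mice of the strain that the labels spell C56BL/6. Every mouse, controls included, received 50 µL of 0.5% DMBA (7,12-dimethylbenz(a)anthracene, a carcinogen) on its back at postnatal day 4 to 5, and livers were taken at 35 weeks. Mothers and pups were fed from birth on either a normal diet with 12 kcal% fat or a high-fat diet with 60 kcal% fat. The 5 groups of 4 libraries were normal-diet liver without exercise, high-fat non-tumour and high-fat tumour pieces without exercise, and high-fat non-tumour and high-fat tumour pieces with exercise. Mice on the high-fat diet weighed over 45 g. The exercise was treadmill running that began at 20 weeks of age at 10 m/min. Over the last 10 weeks it took 20 min daily, 5 days weekly, with the belt at 18 m/min. Both high-fat arms were killed on 1 day within 2 h of the last run. The labels do not say this of the normal-diet mice, so diet cannot be told apart from body weight or from the day of killing. Titles name tumour pieces for high-fat mice only, so diet cannot be told apart from tumours in the same liver either.

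Phase II enzymes attach a polar group to hormones, bilirubin, bile acids, drugs and carcinogen metabolites, which makes most of them easier to excrete in bile or urine. Ugt enzymes sit in the endoplasmic reticulum and transfer glucuronic acid from UDP-glucuronate, Sult enzymes transfer sulfonate from the activated donor PAPS, and Gst enzymes join glutathione to electrophiles. Hepatocytes hold most of this capacity in the body. The transcription factor NRF2 (Nfe2l2) is known to drive many Gst genes, and the receptors AHR, CAR and PXR are known to drive many Ugt and Sult genes. Several members, Gstp1 and some Sult2a genes among them, are known to differ between male and female mouse liver.

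Libraries held 16471378 to 20271948 counts, and the 47 genes took 0.324 to 1.127% of them. Values below are read counts scaled to library size (CPM), with library sizes adjusted by TMM, which centres most genes, and every fold change is a log2 difference with its standard error (SE). A gene was called at a Benjamini-Hochberg adjusted p under 0.05 in edgeR's quasi-likelihood test, adjusted over 14428 genes. All 10 hepatocyte markers on the list used were detected, and their summed level was 59857 to 224651 CPM across the 20 libraries. Normal-diet library 2 was the lowest of its group for 31 of the 47 genes (32.3% of all tested genes had their lowest value there). Tumour library 1 was the lowest of its group for 21 genes without exercise and for 25 with exercise, against 29.6% and 30.6% of all tested genes.

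Near-identical copies limit what the counts can tell. The Ugt1a genes lie on chromosome 1 from 87998522 to 88147724 (GRCm39, from the files), each with a first exon of its own spliced to shared last exons. Reads over the shared exons were left uncounted, so levels per kilobase leave out exon bases that overlap another gene's exons. Bases that only match a gene elsewhere in sequence stayed in the length, although reads mapping to several places also went uncounted. Levels per kilobase of such genes can therefore be too low, by amounts that were not estimated. Of the 50-base stretches of the gene, 89.7% in Gsta1, 62.1% in Sult2a2, 51.0% in Gstp1, 50.4% in Gstp2, 47.4% in Gsta2, 41.7% in Ugt2b5, 37.4% in Ugt2b38, 28.8% in Gstm3 and 96.0% in Ugt1a6a also occur in another gene, so that values of these genes are uncertain. In Ugt1a6b 79.8% of the stretches were shared, in Gstt3 20.6% and in Gstm1 19.9%, so their values are uncertain too. The same holds for Ugt1a5 (64.0%), Ugt1a9 (62.0%), Ugt1a1 (58.2%), Ugt1a7c (54.2%) and Ugt2b37 (18.3%). Shares of the Ugt1a genes include the common last exons, and the share in the first exons alone was not counted. No stretch of Ugt2b1, Gsta3, Gstk1, Gstz1, Sult1b1, Sult1d1, Sult1e1, Sult2a7, Sult2b1 or Sult4a1 was shared.

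The pi class and the Ugt2b cluster show how alike neighbouring members are. Their start-site sequences are given because the estimated changes within each set were unlike, although differences between the members were not tested. Gstp1, Gstp2 and Gstp3 lie side by side on chromosome 19 (4085407 to 4109569, GRCm39), and the Ugt2b genes lie on chromosome 5 (87037626 to 87572062, GRCm39). The sequences are the 250 bases before each start, 5′ to 3′ on the gene's strand (minus for all 5), from RefSeq on GRCm38.p6, an older build than that of the files. The first are Gstp1 at chr19:4037913-4038162 and Gstp2 at chr19:4042222-4042471, with capitals marking the match to TGANTCAGC. This pattern is a form of the antioxidant response element that NRF2 binds, and other forms were not searched.
Gstp1: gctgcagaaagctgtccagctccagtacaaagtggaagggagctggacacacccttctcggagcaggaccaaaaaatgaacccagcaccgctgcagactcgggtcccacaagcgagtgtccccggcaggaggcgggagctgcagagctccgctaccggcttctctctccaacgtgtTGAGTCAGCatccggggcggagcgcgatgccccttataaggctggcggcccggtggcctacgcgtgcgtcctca
Gstp2: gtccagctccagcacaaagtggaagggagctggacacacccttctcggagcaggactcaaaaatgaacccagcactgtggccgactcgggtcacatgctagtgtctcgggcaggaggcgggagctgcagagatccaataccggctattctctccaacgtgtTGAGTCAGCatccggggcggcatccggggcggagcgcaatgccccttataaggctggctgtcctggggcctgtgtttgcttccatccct
Of the 235 aligned bases 208 were identical (88.5%). TGANTCAGC was searched on both strands of the RefSeq windows of 300 bases (250 before to 50 after the start), and 390 of 32851 windows held it (1.19%). Of the 47 genes 40 had a window, and Gstp1 and Gstp2 were the 2 that held it, starting 74 and 89 bases before the start. The genes with no window were Sult2a2, Gstt2, Ugt3a2, Sult2a7, Ugt1a6b, Sult4a1 and Gsta4. A match is a description of these letters and not a site of binding, and a window without it could hold another form of the element.

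The second set is Ugt2b38 at chr5:87424204-87424453, Ugt2b37 at chr5:87254789-87255038 and Ugt2b5 at chr5:87140341-87140590 (GRCm38.p6). Capitals in Ugt2b37 and Ugt2b5 mark the 26 and 38 bases with no identical partner in the alignment to Ugt2b38, ends included.
Ugt2b38: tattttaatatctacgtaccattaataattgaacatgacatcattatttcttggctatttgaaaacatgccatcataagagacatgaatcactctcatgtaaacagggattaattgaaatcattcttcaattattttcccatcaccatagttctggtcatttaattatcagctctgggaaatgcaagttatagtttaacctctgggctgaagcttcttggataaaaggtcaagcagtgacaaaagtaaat
Ugt2b37: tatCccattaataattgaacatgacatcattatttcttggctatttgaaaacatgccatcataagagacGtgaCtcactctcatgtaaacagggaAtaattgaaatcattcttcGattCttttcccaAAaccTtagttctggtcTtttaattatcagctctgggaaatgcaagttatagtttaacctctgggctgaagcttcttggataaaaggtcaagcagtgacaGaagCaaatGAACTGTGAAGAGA
Ugt2b5: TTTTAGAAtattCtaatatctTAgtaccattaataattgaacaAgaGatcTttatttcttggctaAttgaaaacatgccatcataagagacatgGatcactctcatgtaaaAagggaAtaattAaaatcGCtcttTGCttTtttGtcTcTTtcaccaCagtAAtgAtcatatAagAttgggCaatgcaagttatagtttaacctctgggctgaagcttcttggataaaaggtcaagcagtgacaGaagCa
Ugt2b38 shared 94.9% of 236 aligned bases with Ugt2b37 and 88.3% of 240 with Ugt2b5. On the high-fat diet the estimated changes of the 3 genes, given below, were of unlike size, and a difference between them was not tested.

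In normal-diet liver the level per kilobase was highest for Gstm1, at 551 CPM per kb, followed by Ugt2b1 at 437, Ugt2b5 at 418, Gsta3 at 396, Gstp1 at 392, Sult2a8 at 373 and Ugt2b36 at 360. These 7 genes made up 62.5% of the summed level of all members. The order, this share and the family sums below carry the length limit stated above. Gstp1, with 51.0% of its stretches shared, and Ugt2b5, with 41.7%, can be too low against Ugt2b1 and Gsta3, which share none. Gstm1 is the main mu class enzyme of mouse liver, Gsta3 is the alpha class enzyme known to detoxify aflatoxin epoxide in mice, and Sult2a8 is a liver sulfotransferase of bile acids. Family sums per library were 1417 to 1796 CPM per kb for Ugt2, 504 to 802 for Gstm, 348 to 573 for Gsta, 292 to 459 for Gstp and 310 to 414 for Sult2. In non-tumour liver of non-exercised mice on the high-fat diet the sums were 877 to 1205 for Ugt2, 1024 to 1463 for Gstm, 392 to 526 for Gsta, 134 to 196 for Gstp and 49.5 to 167 for Sult2. Gstm was thus above its normal-diet range, Ugt2, Gstp and Sult2 were below theirs, and Gsta overlapped it. In tumours of that arm Ugt2 came to 440 to 709, Gstm to 373 to 798, Gsta to 109 to 264 and Sult2 to 10.0 to 71.0 CPM per kb.

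**Figure D1:**
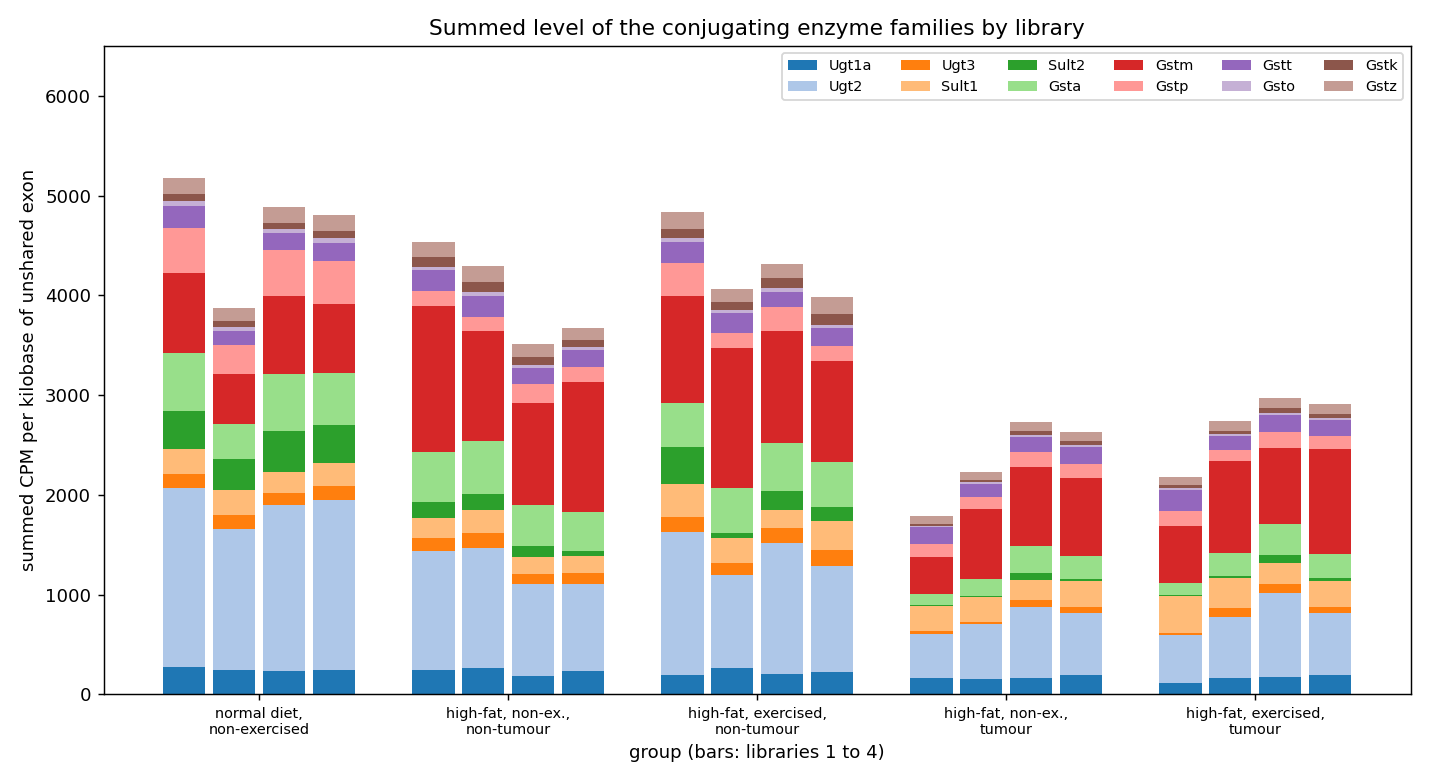
Summed level of 12 families per library, in CPM per kilobase of exon outside other genes' exons (20 bars starting at 0, 4 per group). Sult4 and Sult5, 1 gene each at under 2 CPM per kb in every group mean, are left out. The Gstm segment is tallest in the high-fat non-tumour pieces (1024 to 1463 without exercise), and the Ugt2 segment falls from 1417 to 1796 in normal-diet liver to 440 to 709 in non-exercised tumours.

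High-fat diet was compared with normal diet in non-tumour liver of non-exercised mice, with the confounding stated above. Of 47 members 15 were called, 6 higher and 9 lower, while 25.9% of all genes tested were called (14% higher and 11.9% lower). Gsta1 and 4 of the 7 mu class Gst genes were higher, and Ugt2b1, Ugt2b38, Gstp1 and Gstp2 were lower. The libraries of the groups did not overlap for 8 members that were higher and 13 that were lower (16.8% and 16.3% of all genes). The median log2 fold change of the members was -0.10, and that of all genes 0.01. In bulk tissue, fewer cells of a type and less RNA per cell cannot be told apart.

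Among the Ugt genes 3 of 16 were lower on the high-fat diet and none was higher, all 3 in the Ugt2 family. Ugt2b1, a glucuronosyltransferase of steroids and drugs, was at 1222, 1017, 1099 and 1164 CPM in normal-diet liver and at 342, 295, 261 and 208 CPM in high-fat liver. The groups stood far apart, with a log2 fold change of -2.03 (SE 0.31, adjusted p = 0.000354). Ugt2b38 was at 27.1, 11, 15.2 and 30.1 CPM on the normal diet and at 0.673, 0.0535, 0.447 and 0.145 CPM on the high-fat diet. Its change of -5.97 (SE 1.08, adjusted p = 0.00115) was the lowest among the members. Ugt2a3 was at 412, 329, 396 and 422 CPM against 181, 242, 161 and 157 CPM, again without overlap, with a change of -1.07 (SE 0.25, adjusted p = 0.00537).

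Ugt2b37 and Ugt2b5, aligned with Ugt2b38 above, had smaller differences. Ugt2b37 went from 3.62, 3.49, 2.58 and 6.23 CPM to 2.41, 0.91, 1.84 and 1.02 CPM (log2 difference -1.36, SE 0.63, adjusted p = 0.115). Ugt2b5, a major hepatic member, went from 853, 690, 801 and 766 CPM to 686, 637, 511 and 453 CPM (-0.44, SE 0.22, adjusted p = 0.148). Neither was called, although the libraries did not overlap in either gene, and in a fit of only these 8 libraries both passed (adjusted p = 0.0153 and 0.0338). Whether the 3 genes differ from one another in their response was not tested. None of the 6 Ugt1a genes was called, and Ugt1a1, the bilirubin glucuronosyltransferase, was at 180, 171, 157 and 164 CPM against 156, 183, 111 and 138 CPM (-0.19, SE 0.16, adjusted p = 0.391).

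Of the 11 Sult genes 1 was higher and 2 were lower. Sult1c2 rose from 2.8, 1.1, 2.75 and 2.23 CPM to 7.57, 7.28, 7.4 and 6.78 CPM, a change of 1.70 (SE 0.27, adjusted p = 0.000428). Sult1b1, a sulfotransferase of thyroid hormones and phenols, fell from 44.6, 34.8, 37.8 and 47.9 CPM to 25.2, 26.0, 18.1 and 18.8 CPM (-0.91, SE 0.22, adjusted p = 0.00567). Sult1d1, which acts on catecholamines, fell from 214, 196, 178 and 195 CPM to 116, 159, 87.3 and 99.7 CPM (-0.76, SE 0.26, adjusted p = 0.0395). The Sult1d1 call was lost on leaving out any 1 of 7 of the 8 libraries (all but high-fat library 2), with adjusted p of 0.0563 to 0.116, and also under upper-quartile scaling (0.0554) and with no filter on low counts (0.0986). Sult2a8 was at 1263, 1014, 1355 and 1264 CPM on the normal diet and at 523, 538, 361 and 160 CPM on the high-fat diet. The groups did not overlap, but the change of -1.63 (SE 0.82) was not called in the fit over all 20 libraries (adjusted p = 0.15). It was called in the fit of these 8 libraries alone (adjusted p = 0.00779), and the gene varied widely in the tumour and exercised libraries given below.

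Of the 20 Gst genes 5 were higher and 4 were lower. In the mu class 4 of 7 were higher and none was lower. Gstm1 was at 939, 611, 926 and 773 CPM on the normal diet and at 1705, 1279, 1200 and 1525 CPM on the high-fat diet (0.81, SE 0.23, adjusted p = 0.0169). Gstm2 rose from 27.5, 19.5, 25.7 and 35.7 CPM to 115, 87.8, 56.6 and 68.4 CPM (1.59, SE 0.30, adjusted p = 0.0014). Gstm3 rose from 30.7, 9.6, 31.9 and 34.1 CPM to 156, 93.9, 93.4 and 175 CPM (2.28, SE 0.51, adjusted p = 0.00446). No high-fat library of these 3 genes was as low as any normal-diet library. Gstm5 was at 6.42, 4.65, 5.5 and 5.28 CPM against 8.58, 6.26, 9.28 and 9.15 CPM, with 1 library of each group overlapping (0.61, SE 0.15, adjusted p = 0.00601). The Gstm1 call was lost without normal-diet library 2 (adjusted p = 0.0597) and without high-fat library 1 (adjusted p = 0.0535).

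In the alpha class Gsta1 and Gsta2, inducible enzymes encoded near each other on chromosome 9 (78137938 to 78149966 and 78238300 to 78263070, GRCm39), went opposite ways. Gsta1 rose from 0.583, 0.523, 0.86 and 0.7 CPM to 5.33, 3.64, 4.22 and 10.7 CPM (3.15, SE 0.78, adjusted p = 0.00767). Gsta2 fell from 63.8, 26.6, 40.7 and 41.7 CPM to 14.1, 21.9, 11.3 and 16.5 CPM (-1.44, SE 0.47, adjusted p = 0.0334). Leaving out library 1, 3 or 4 of either diet ended the Gsta2 call (adjusted p 0.0571 to 0.106), as did using no filter on low counts (0.087). The abundant Gsta3 was at 1879, 1199, 1984 and 1814 CPM against 1846, 1893, 1455 and 1344 CPM (-0.07, SE 0.32, adjusted p = 0.887).

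Both Gstp1 and Gstp2 fell, and Gstp3 was not called. Gstp1, the abundant pi class enzyme, went from 680, 435, 677 and 636 CPM to 195, 174, 278 and 198 CPM (-1.52, SE 0.26, adjusted p = 0.000675). Gstp2 went from 5.07, 2.04, 7.11 and 8.08 CPM to 1.46, 1.23, 1.34 and 1.84 CPM (-1.92, SE 0.54, adjusted p = 0.0153). In both genes every high-fat library was below every normal-diet library. Gsto1, an omega class enzyme that reduces dehydroascorbate and arsenic compounds, fell from 102, 97.9, 80.7 and 86.4 CPM to 68.9, 70.6, 57.5 and 57.9 CPM (-0.53, SE 0.12, adjusted p = 0.00434). Theta class Gstt1 (0.15, SE 0.16), kappa class Gstk1 (0.44, SE 0.28) and zeta class Gstz1 (-0.10, SE 0.12) were not called, with adjusted p of 0.524, 0.26 and 0.57. Gstm4 (0.45, SE 0.20), Gstm6 (-0.21, SE 0.17), Gstm7 (-0.26, SE 0.13), Gstp3 (0.42, SE 0.18), Gstt2 (0.09, SE 0.16), Gstt3 (-0.48, SE 0.29) and Gsta4 (-0.17, SE 0.17) were not called either.

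**Figure D2:**
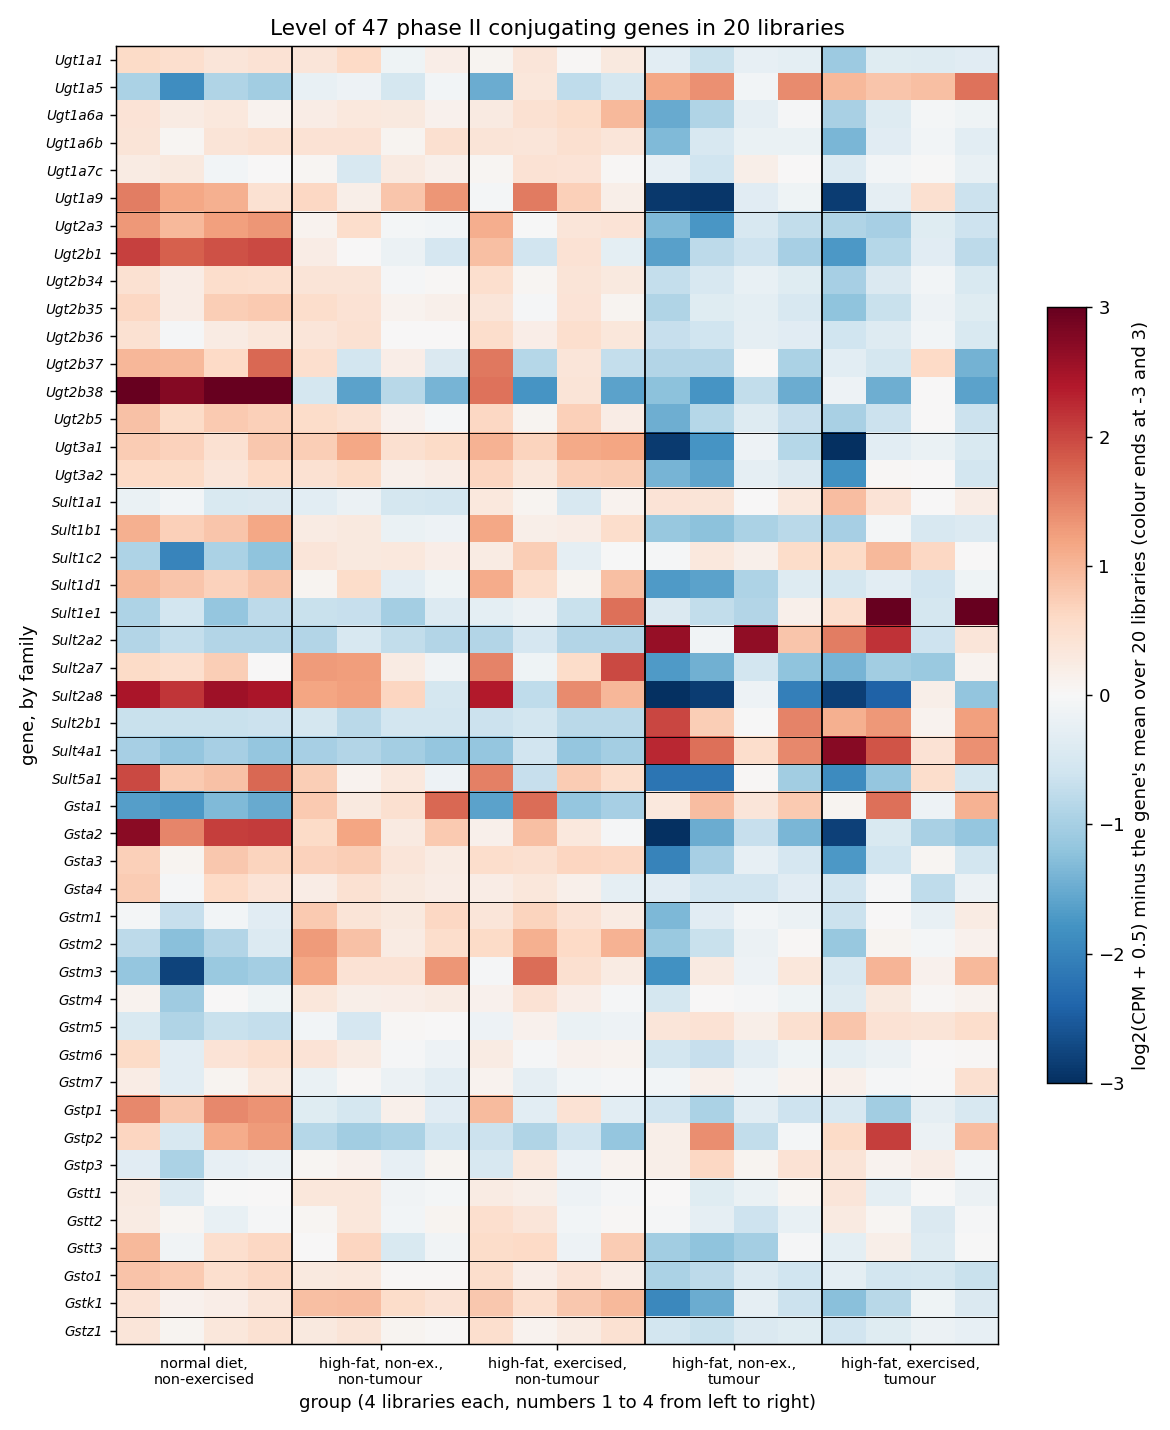
Level of the 47 genes in 20 libraries, as log2(CPM + 0.5) minus the mean of the gene over all libraries (rows by family, columns by group, red above and blue below the mean). Ugt2b38, Ugt2b1 and Gstp1 are reddest in the normal-diet columns, Gstm1, Gstm2 and Gstm3 are higher in the high-fat non-tumour columns than in the normal-diet ones, and the 22 genes called lower in both arms are bluer in the tumour columns.

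Genes that supply, regulate or accompany the conjugating enzymes were counted from lists chosen with earlier results of these data known. Of 14 measured NRF2 targets outside the families 9 were higher on the high-fat diet and none lower (median 0.78), among them Srxn1 (1.22, SE 0.25), Pgd (0.96, SE 0.22), Cbr3 (2.72, SE 0.66) and Tkt (0.52, SE 0.13). Nfe2l2, which encodes NRF2, was itself higher by 1.14 (SE 0.15, adjusted p = 9.85e-05). Of 9 targets of AHR, CAR and PXR 5 were lower and 1 was higher (median -1.39), with Cyp2b10, the classical CAR target, at -6.21 (SE 1.08) and Cyp3a11, the classical PXR target, at -1.76 (SE 0.38). Of 25 measured regulators 2 were higher and 6 lower, Hnf4a, the master factor of hepatocyte genes, by -0.65 (SE 0.11). These counts describe the lists and were not tested as sets.

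Genes known to differ between the sexes moved as well in these male livers. Of 10 male-biased genes 4 were lower and none higher (median -2.19), with Hsd3b5 at -8.89 (SE 1.79) and Selenbp2 at -5.47 (SE 0.92). Of 6 measured female-biased genes 4 were higher and none lower (median 4.66), with Cyp2b9 at 6.28 (SE 0.86) and Cyp2b13 at 7.43 (SE 1.27). Of 6 genes of UDP-glucuronate supply and glucuronide cleavage 3 were higher. On the supply side these were Ugp2, which makes UDP-glucose (0.65, SE 0.14), and the phosphoglucomutase Pgm2 (0.82, SE 0.27). The third was Gusb, which cleaves glucuronides (0.55, SE 0.12). For sulfation Papss1, a PAPS synthase, was the 1 of 8 that was called (0.40, SE 0.12). Of 16 genes of glutathione synthesis and breakdown 3 were higher, including the synthase Gss (0.59, SE 0.13) and the ligase subunit Gclc (0.53, SE 0.17), and 2 were lower. Among other conjugating enzymes the microsomal Mgst3 was higher (1.62, SE 0.34).

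Markers of other cells moved with the diet too. Of 11 macrophage markers 8 were higher and none lower, and their sum was 205 to 282 CPM in normal-diet liver and 334 to 457 CPM in high-fat liver. Of 10 stellate cell markers 5 were higher (259 to 377 against 379 to 685 CPM), of 9 endothelial markers 2 were lower (333 to 366 against 200 to 319 CPM), and of 10 hepatocyte markers 5 were lower (85076 to 99222 against 59857 to 87086 CPM). Of 4 erythroid markers 3 were higher (157 to 230 against 135 to 357 CPM), of 9 T and B cell markers 1 was lower (8.33 to 10.7 against 5.51 to 16.3 CPM), and none of 8 cholangiocyte markers was called (51.5 to 71.0 against 63.2 to 197 CPM). Spp1, with means of 30.8 and 98.5 CPM, weighed most in the cholangiocyte sums. Of 6 mitochondrially encoded genes, a sign of RNA quality and of mitochondrial content, 1 was lower (48534 to 59135 against 35793 to 50042 CPM). Their part in the diet differences was not tested.

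**Figure D3:**
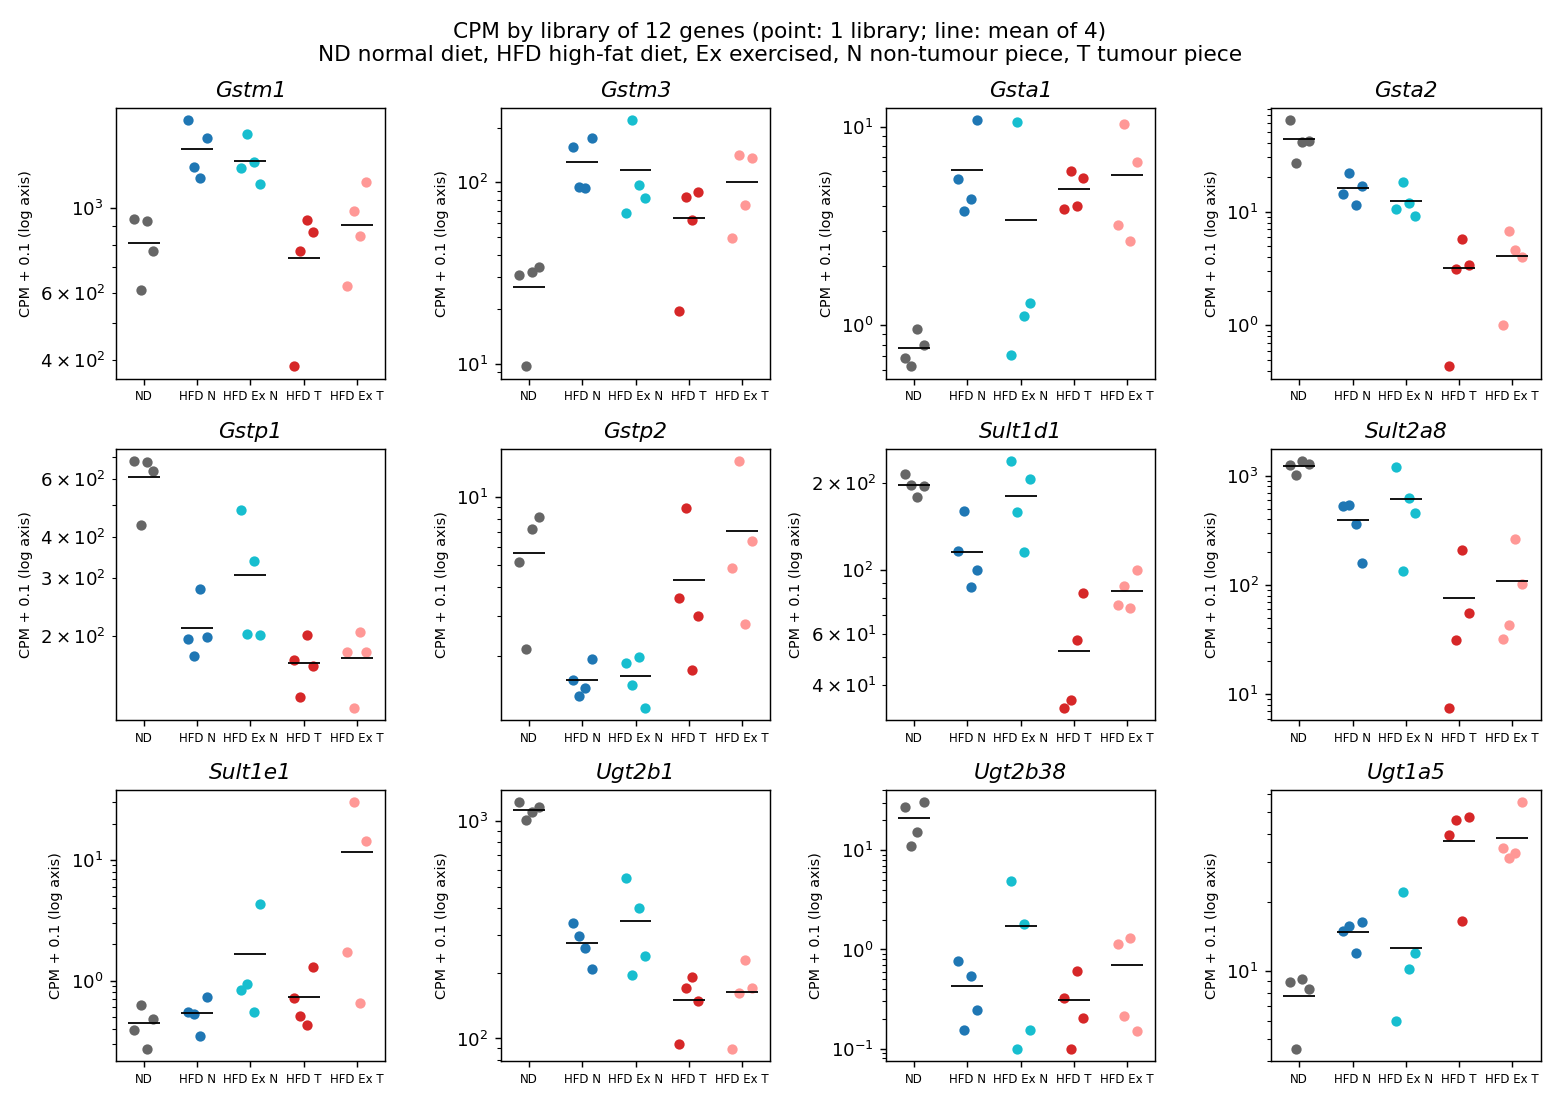
CPM of 12 genes in each library (log axis, 0.1 added so that zeros show; points are libraries, lines are means of 4). Ugt2b1 and Gstp1 are highest in normal-diet liver (1017 to 1222 and 435 to 680 CPM), Gstm3 is higher in all 4 high-fat non-tumour libraries than in any normal-diet one, and Sult1e1 reaches 29.8 and 14.2 CPM in 2 exercised tumours only.

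Within each high-fat arm, tumours were set against non-tumour liver. The titles give the pieces of an arm the numbers 1 to 4 of a mouse, and pieces with 1 number were taken to come from 1 animal. More members were called lower than higher in tumours. In non-exercised mice 26 were lower and 7 higher, while 35.8% of all genes tested were called (17.8% lower and 18% higher). In exercised mice 23 were lower and 7 higher, while 34.6% of all genes were called (16% lower and 18.6% higher). Tumour and non-tumour libraries did not overlap for 25 lower and 6 higher members without exercise (18.2% and 16.5% of all genes) and for 19 lower and 5 higher members with exercise (13.9% and 14.6%). The median log2 difference of the members was -0.76 in both arms, against -0.01 and 0.01 over all genes. In all 4 mice the tumour piece was lower for 31 members without exercise and for 28 with exercise. The arms share no library, and 22 members were lower in both, 84.6% of the 26 and 95.7% of the 23, and none was called in opposite directions. The counts in all 4 mice and in both arms were not made over all genes. They therefore do not set the members apart from other genes. Of the 6 members higher in both, Sult2a2, Sult2b1 and Sult4a1 passed the count minimum only through tumour libraries and had to differ, so their share in both arms says nothing. Sult2a7, among the 22 lower in both, passed it only through libraries without tumour, so its place there carries no weight either.

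All but 1 of the called Ugt genes were lower in tumours: 12 of 16 without exercise and 11 of 16 with exercise. Ugt2b36 was at 799, 851, 620 and 622 CPM in non-tumour and at 379, 405, 511 and 485 CPM in tumour pieces of non-exercised mice (-0.70, SE 0.15, adjusted p = 0.00153). With exercise it was at 883, 710, 881 and 781 CPM and at 409, 473, 579 and 447 CPM (-0.77, SE 0.15, adjusted p = 0.000981). Tumour and non-tumour libraries did not overlap in either arm. Ugt2b5 fell from the values above to 169, 255, 354 and 289 CPM (-1.10, SE 0.23, adjusted p = 0.00127), and in exercised mice from 722, 491, 760 and 541 to 236, 296, 469 and 296 CPM (-0.96, SE 0.22, adjusted p = 0.00377).

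Ugt2a3 fell from 181, 242, 161 and 157 to 66.7, 50.0, 119 and 99.5 CPM (-1.14, SE 0.25), and with exercise from 356, 166, 215 and 223 to 89.6, 83.9, 131 and 109 CPM (-1.21, SE 0.25). Ugt2b34 fell from 608, 613, 459 and 482 to 284, 334, 398 and 365 CPM (-0.65, SE 0.16), and with exercise from 662, 484, 609 and 576 to 235, 343, 438 and 341 CPM (-0.78, SE 0.16). Ugt2b35 fell from 280, 259, 209 and 216 to 103, 149, 157 and 139 CPM (-0.82, SE 0.19), and with exercise from 249, 187, 257 and 205 to 83.7, 122, 174 and 149 CPM (-0.76, SE 0.19). In these 3 genes no tumour library reached the non-tumour libraries of its arm.

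Ugt2b1, already low on the high-fat diet, was at 94.1, 171, 191 and 148 CPM in non-exercised tumours (-0.87, SE 0.30, adjusted p = 0.0316). The exercised mice had 549, 197, 400 and 241 CPM in non-tumour and 89.5, 162, 231 and 171 CPM in tumour pieces (-1.09, SE 0.30, adjusted p = 0.0108). Both Ugt2b1 calls were lost with the mouse as a block (adjusted p = 0.102 and 0.0788). Without exercise the call was also lost on leaving out non-tumour library 1 or 2 or tumour library 1, 2 or 4 (adjusted p 0.0503 to 0.122), and with exercise on leaving out non-tumour library 1 (adjusted p = 0.0565). Using no filter on low counts ended the Ugt2b1 call without exercise (0.0955), and fitting the compared groups alone ended it with exercise (0.0634). Ugt2b38 (-0.58, SE 1.43, and -1.39, SE 1.03) and Ugt2b37 (-0.87, SE 0.67, and -0.86, SE 0.64) were not called in either arm.

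Both Ugt3 genes, whose enzymes use sugars other than glucuronic acid, were lower in tumours. Ugt3a1 was at 63.9, 85.4, 53.4 and 56.3 CPM in non-tumour and at 4.72, 10.7, 34.2 and 20.7 CPM in tumour pieces of non-exercised mice (-1.88, SE 0.50, adjusted p = 0.0079). Exercised non-tumour values were 79.1, 60.3, 83.9 and 86.2 CPM and exercised tumour values 4.17, 30.5, 33.0 and 27.3 CPM (-1.70, SE 0.49, adjusted p = 0.014). Tumour library 1 was the lowest in both arms. Ugt3a2 fell from 321, 351, 262 and 271 to 89.1, 78.4, 193 and 174 CPM (-1.17, SE 0.32), and with exercise from 366, 297, 387 and 390 to 66.3, 238, 236 and 160 CPM (-1.04, SE 0.32). With the mouse as a block, both genes missed the threshold in the exercised arm (adjusted p = 0.0506 for Ugt3a1 and 0.0521 for Ugt3a2), and Ugt3a2 also missed it there in the fit of the compared groups alone (0.0571).

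In the Ugt1a cluster, whose members share all but the first exon, 1 gene went the other way. Ugt1a5 was at 14.8, 15.6, 11.9 and 16.3 CPM in non-tumour and at 39.7, 45.9, 16.5 and 47.2 CPM in tumour pieces of non-exercised mice (1.35, SE 0.35, adjusted p = 0.00705). Exercised mice had 5.89, 22.1, 10.1 and 11.9 CPM in non-tumour and 34.5, 31.4, 32.9 and 55.0 CPM in tumour pieces (1.62, SE 0.36, adjusted p = 0.00274). Every tumour library was above every non-tumour library of its arm. Ugt1a1 fell to 97.8, 75.8, 102 and 98.1 CPM (-0.66, SE 0.16, adjusted p = 0.00432) and, in exercised mice, from a mean of 139 (SD 16, n = 4) to 56.6, 94.3, 92.5 and 95.1 CPM (-0.72, SE 0.16, adjusted p = 0.00272).

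Ugt1a6b and Ugt1a6a, which encode enzymes of small phenols, were lower in both arms. Ugt1a6b went from 30.7, 31.0, 24.1 and 32.1 to 8.71, 16.2, 19.9 and 19.6 CPM (-0.87, SE 0.24), and with exercise from 29.7, 29.3, 31.7 and 29.5 to 8.47, 18.0, 21.6 and 18.2 CPM (-0.86, SE 0.24). Ugt1a6a went from 8.19, 8.72, 8.59 and 7.55 to 2.08, 3.44, 5.67 and 6.72 CPM (-0.88, SE 0.27), and with exercise from 8.39, 9.60, 10.4 and 14 to 3.27, 5.20, 6.61 and 6.22 CPM (-0.99, SE 0.27). Neither gene's tumour libraries overlapped the non-tumour ones. The Ugt1a6a call without exercise was lost without tumour library 1 or 2 (adjusted p = 0.0559 and 0.0589) and in the fit of the compared groups alone (0.0567). Ugt1a9 was at 13.1, 9.42, 15.2 and 21.4 CPM in non-tumour and at 0.674, 0.667, 6.46 and 7.55 CPM in tumour pieces of non-exercised mice (-1.94, SE 0.69, adjusted p = 0.0369). Its call was lost on leaving out non-tumour library 1, 3 or 4 or tumour library 1 or 2 (adjusted p 0.0582 to 0.106), in the fit of the compared groups alone (0.0684) and with no filter on low counts (0.102). In exercised mice it was at 7.96, 25.5, 14 and 9.48 CPM against 0.726, 6.85, 11.7 and 5.11 CPM, which overlapped (-1.22, SE 0.67, adjusted p = 0.17). Ugt1a7c, under 1 CPM in every library, was not called in either arm.

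**Figure D4:**
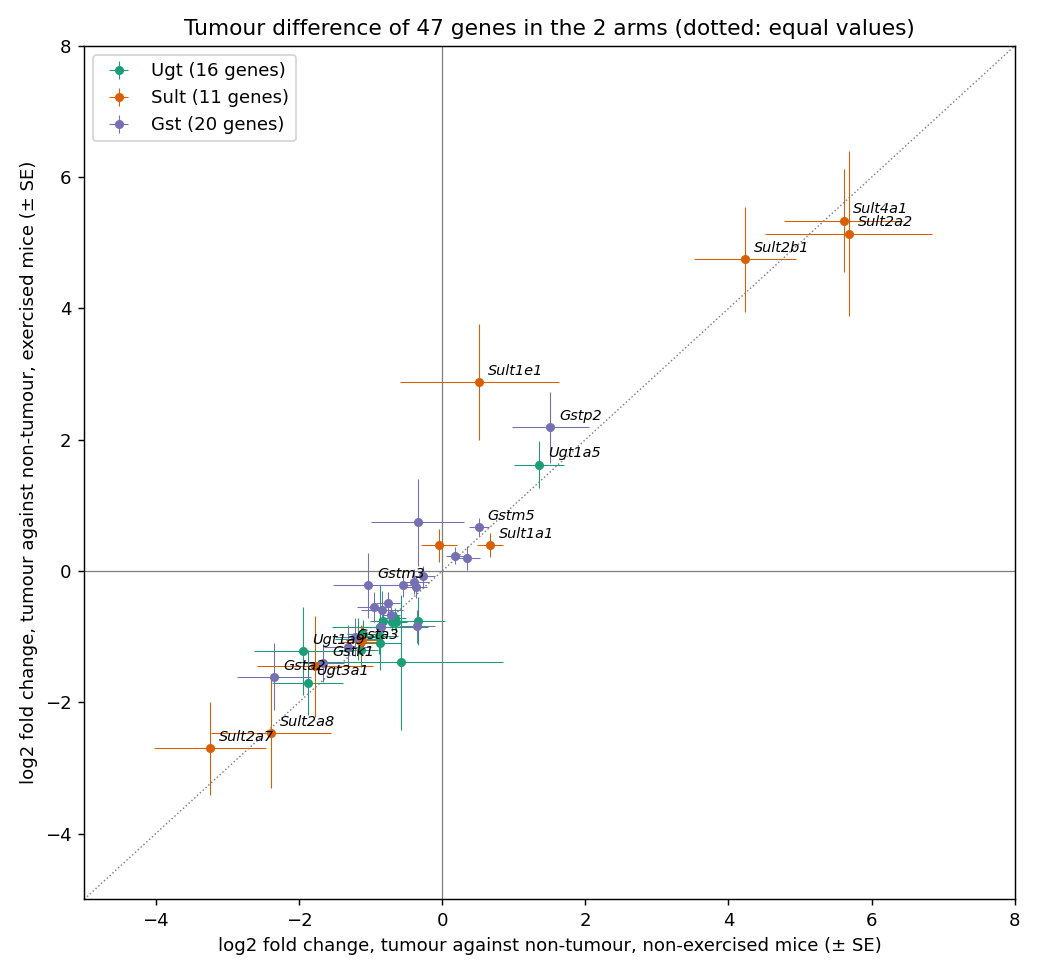
Log2 fold change of tumour against non-tumour pieces in non-exercised (x axis) and exercised mice (y axis) for the 47 genes; bars are ± 1 SE, colours are the 3 superfamilies and the dotted line marks equal values. Most genes lie between -2 and 0 on both axes, Sult2a2, Sult4a1 and Sult2b1 lie above 4 on both, and Sult1e1 lies at 0.52 on the x axis and 2.88 on the y axis.

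Of the 11 Sult genes 4 were lower in each arm, and 4 were higher, 3 of which (Sult2a2, Sult2b1 and Sult4a1) are in the set only through their tumour counts. Among the lower genes, Sult2a7 is in the set only through libraries without tumour. Sult2a8 was at 523, 538, 361 and 160 CPM in non-tumour and at 7.47, 31.6, 208 and 55.0 CPM in tumour pieces of non-exercised mice (-2.39, SE 0.84, adjusted p = 0.0351). The exercised values were 1209, 135, 618 and 457 CPM in non-tumour and 31.9, 42.8, 262 and 101 CPM in tumour pieces (-2.47, SE 0.84, adjusted p = 0.0318). The groups overlapped in both arms, through 1 or 2 libraries, and the block by mouse ended both calls (adjusted p = 0.0623 and 0.0925), as did fitting the compared groups alone (0.067 and 0.0594) and using no filter on low counts (0.0978 and 0.0852). Leaving out non-tumour library 1, 2 or 3 or tumour library 1, 2 or 4 ended the call without exercise (adjusted p 0.0527 to 0.1). With exercise it ended on leaving out non-tumour library 1 or 3 or tumour library 1, 2 or 4 (0.0502 to 0.112). Without tumour library 3 the changes were -3.66 (adjusted p = 0.00376) and -3.38 (adjusted p = 0.0093).

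Sult2a7 was at 3.42, 3.37, 1.44 and 1.02 CPM in non-tumour and at 0, 0.103, 0.604 and 0.207 CPM in tumour pieces of non-exercised mice (-3.24, SE 0.78, adjusted p = 0.0039), and with exercise at 4.07, 0.985, 1.87 and 5.90 against 0.121, 0.285, 0.25 and 1.26 CPM (-2.70, SE 0.71, adjusted p = 0.00791). Exercised tumour library 4 alone overlapped the non-tumour range, and without it the change was -3.82 (adjusted p = 0.00274). Without tumour library 3 the non-exercised change was -4.36 (adjusted p = 0.00141). Sult2a7 reached 10 counts in every library without tumour (18 to 109 counts) but in few tumour libraries (0 to 24 counts). It thus passed the count minimum only through the former, and its lower calls are a description. Sult1d1 fell to 33.4, 35.6, 57.1 and 83.3 CPM (-1.14, SE 0.27, adjusted p = 0.00319), and in exercised mice from 237, 158, 115 and 206 to 75.5, 88.2, 73.8 and 100 CPM (-1.08, SE 0.26, adjusted p = 0.00495). Sult1b1 fell to 9.33, 8.62, 10.6 and 11.8 CPM (-1.12, SE 0.22), and in exercised mice from 47.6, 23.6, 24.7 and 30.7 to 10.2, 20.0, 15 and 15.7 CPM (-1.05, SE 0.22). Tumour and non-tumour libraries of Sult1d1 and Sult1b1 did not overlap in either arm. Sult1a1, the main phenol sulfotransferase, was the 1 member called higher without exercise alone. It was at 206, 229, 178 and 176 CPM against 344, 334, 260 and 319 CPM there (0.67, SE 0.18, adjusted p = 0.0084), and at 321, 272, 185 and 279 against 492, 341, 260 and 302 CPM with exercise (0.40, SE 0.18, adjusted p = 0.0953), where the block by mouse called it (adjusted p = 0.0265).

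Sult2a2, Sult2b1 and Sult4a1 were near 0 outside tumours. They passed the count minimum only through the tumour libraries, so they had to differ, and their values are a description. Sult4a1, a brain-enriched member with no well-established substrate, was at 0.0561, 0.107, 0.0496 and 0 CPM in non-tumour and at 4.83, 3.03, 1.12 and 2.53 CPM in tumour pieces of non-exercised mice. The exercised values were 0, 0.246, 0 and 0.0542 CPM against 6.90, 3.65, 1 and 2.37 CPM. Sult2b1, a cholesterol sulfotransferase of skin, was at 0.112, 0, 0.0993 and 0.0968 CPM against 3.03, 0.975, 0.372 and 1.96 CPM, and with exercise at 0.0608, 0.0984, 0 and 0 against 1.33, 1.66, 0.451 and 1.58 CPM. Every tumour library of these 2 genes was above every non-tumour library of its arm.

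Sult2a2, which shares sequence with other Sult2a genes, was at 0, 0.161, 0.0496 and 0 CPM against 5.17, 0.359, 5.34 and 1.14 CPM without exercise, and at 0, 0.148, 0 and 0 against 2.18, 3.60, 0.1 and 0.685 CPM with exercise. The pooled ratio of tumour to non-tumour in non-exercised mice rested on 236 and 4 counts for Sult2a2 (58.4, 95% interval 22.5 to 216), on 119 and 6 for Sult2b1 (19.6, 8.75 to 54.5) and on 218 and 4 for Sult4a1 (53.9, 20.8 to 200). In exercised mice it rested on 114 and 3 counts for Sult2a2 (39.1, 13 to 192), on 90 and 3 for Sult2b1 (30.8, 10.2 to 152) and on 243 and 6 for Sult4a1 (41.6, 18.9 to 115). These exact intervals cover counting error only, not the spread between mice. Exercised non-tumour library 2 held most of the few non-tumour counts of that arm: without it the fitted log2 change was 7.90 for Sult2a2, 5.63 for Sult2b1 and 7.10 for Sult4a1, against 5.14, 4.75 and 5.34 with it. Sult2a2 went to 4.38 without exercised tumour library 2, and without exercise from 5.68 to 6.99 without non-tumour library 2.

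Gst genes were lower in tumours in 10 of 20 cases without exercise and in 8 of 20 with exercise, and 2 were higher in each arm. Gstk1, a kappa class enzyme of mitochondria and peroxisomes, was at 150, 153, 118 and 109 CPM in non-tumour and at 20.8, 28.2, 66.6 and 51.6 CPM in tumour pieces of non-exercised mice (-1.66, SE 0.29, adjusted p = 0.000426). With exercise Gstk1 was at 141, 115, 142 and 159 CPM and at 33.3, 44.9, 73.9 and 59.5 CPM (-1.40, SE 0.29, adjusted p = 0.00168). Gsta3 fell from 1846, 1893, 1455 and 1344 to 282, 572, 963 and 808 CPM (-1.32, SE 0.33, adjusted p = 0.00499), and with exercise from 1651, 1588, 1782 and 1758 to 346, 754, 1185 and 772 CPM (-1.15, SE 0.33, adjusted p = 0.012). No tumour library of Gstk1 or Gsta3 reached its non-tumour range.

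Gsto1 had the smallest p of all members in both arms, at 29.0, 32.5, 42.2 and 37.2 CPM in non-exercised tumours (-0.85, SE 0.12, adjusted p = 0.000116). Exercised non-tumour pieces were at 81.1, 64.7, 74.8 and 66.2 CPM and exercised tumours at 46.0, 38.1, 39.2 and 35.4 CPM (-0.85, SE 0.12, adjusted p = 0.000128). Gstz1, the maleylacetoacetate isomerase of tyrosine breakdown, went from 761, 811, 659 and 633 to 419, 390, 457 and 484 CPM (-0.71, SE 0.12), and with exercise from 870, 670, 738 and 850 to 418, 477, 543 and 524 CPM (-0.67, SE 0.12). Both genes were lower in every tumour than in any non-tumour piece of the same arm.

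Gsta2 fell to 0.337, 3.03, 5.62 and 3.31 CPM (-2.35, SE 0.52, adjusted p = 0.00247), and with exercise from 10.4, 17.9, 11.8 and 9.04 to 0.907, 6.68, 4.51 and 3.90 CPM (-1.61, SE 0.51, adjusted p = 0.0219). The exercised Gsta2 call was lost without non-tumour library 2 (adjusted p = 0.0576) and without tumour library 1 (adjusted p = 0.0593), and with no filter on low counts (0.0597). Gsta4, which conjugates the lipid peroxidation product hydroxynonenal, fell from 73.9, 86.1, 77.1 and 73.2 to 50.1, 41.9, 42.5 and 49.3 CPM (-0.76, SE 0.17, adjusted p = 0.00263). With exercise it went from 73.7, 79.6, 70.4 and 51.8 to 42.3, 61.7, 36.8 and 55.7 CPM, which overlap (-0.49, SE 0.17, adjusted p = 0.0346). Its exercised call was lost without non-tumour library 1, 2 or 3 or tumour library 1 or 3 (adjusted p 0.0554 to 0.103) and in the fit of the compared groups alone (0.0865).

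The mu class was less uniform than under the diet. Gstm2 fell to 21.5, 29.7, 41.9 and 48.7 CPM (-1.21, SE 0.29, adjusted p = 0.00458), and with exercise from 70.8, 100, 71.9 and 97.9 to 21.4, 50.4, 45.5 and 51.7 CPM (-1.01, SE 0.29, adjusted p = 0.0134). Gstm1 fell to 385, 773, 930 and 865 CPM without exercise (-0.95, SE 0.24, adjusted p = 0.00465). With exercise it was at 1272, 1564, 1324 and 1161 CPM against 625, 985, 844 and 1171 CPM (-0.55, SE 0.23, adjusted p = 0.0742), and DESeq2 called it there (adjusted p = 0.0489). Gstm5, a mu class enzyme of brain and testis, rose to 11.8, 12.4, 10.3 and 12.9 CPM (0.51, SE 0.14, adjusted p = 0.0093), and with exercise from 8.08, 9.99, 7.76 and 8.12 to 16.6, 12.3, 12.0 and 13.3 CPM (0.67, SE 0.14, adjusted p = 0.00184). Gstm3 was at 19.4, 83.5, 62.0 and 87.9 CPM in non-exercised and at 49.3, 141, 75.0 and 137 CPM in exercised tumours and was not called (-1.03, SE 0.49, and -0.22, SE 0.49). Gstm6 was called without exercise alone (-0.55, SE 0.17, adjusted p = 0.0177, and -0.22, SE 0.17), while Gstm4 (-0.39, SE 0.20, and -0.16, SE 0.19) and Gstm7 (0.18 and 0.23, SE 0.13 in both) were not called. The Gstm6 call was lost without library 1 or 2 of either piece (adjusted p 0.0512 to 0.0736).

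In the pi class Gstp2 was higher in tumours and Gstp1 was not. Gstp2 was at 1.46, 1.23, 1.34 and 1.84 CPM in non-tumour and at 3.48, 8.83, 1.63 and 2.89 CPM in tumour pieces of non-exercised mice (1.51, SE 0.54, adjusted p = 0.036). In exercised mice it was at 1.76, 1.38, 1.87 and 1.08 CPM and at 4.78, 14.3, 2.65 and 6.27 CPM (2.19, SE 0.54, adjusted p = 0.00517), with no overlap. The block by mouse ended the call without exercise (adjusted p = 0.0863), as did leaving out non-tumour library 1, 2 or 3 or tumour library 1 or 2 (0.0503 to 0.215) and using no filter on low counts (0.0922). Tumour library 2 weighed most, and the change without it was 0.86 (adjusted p = 0.215) in non-exercised and 1.57 (adjusted p = 0.0271) in exercised mice.

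Gstp1 was at 195, 174, 278 and 198 CPM against 169, 130, 201 and 162 CPM in non-exercised mice (-0.35, SE 0.25, adjusted p = 0.289). In exercised mice it was at 483, 202, 338 and 201 CPM against 178, 121, 206 and 179 CPM (-0.84, SE 0.25, adjusted p = 0.0166). The exercised call was lost without non-tumour library 1 (-0.53, adjusted p = 0.0868) and without tumour library 2 (-0.71, adjusted p = 0.056), and in the fit of the compared groups alone (0.0725). Gstp1 is far more abundant than Gstp2, and their reads can be told apart only over the stretches that the 2 genes do not share. Theta class Gstt1 was not called in either arm (-0.26, SE 0.16, and -0.08, SE 0.16), and the values in non-exercised tumours were 236, 182, 205 and 244 CPM. Gstt3 was called without exercise (-0.84, SE 0.30, adjusted p = 0.0351) and not with exercise (-0.60, SE 0.29), and Gstt2 (-0.37 and -0.25, SE 0.16 in both) and Gstp3 (0.35 and 0.20, SE 0.18 in both) were not called. Leaving out library 1 or 2 of either piece or tumour library 3 ended the Gstt3 call (adjusted p 0.0575 to 0.151), as did fitting the compared groups alone (0.0725) and using no filter on low counts (0.107). Sult5a1, at 0.0513 to 9.57 CPM over all libraries, was not called in any comparison.

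Supporting genes also moved in tumours. Of 12 other conjugating enzymes 9 were lower and 1 higher without exercise and 8 were lower and 1 higher with exercise (medians -0.90 and -0.84). Examples are Baat, which conjugates bile acids with taurine (-1.22, SE 0.24, and -1.17, SE 0.24), the microsomal Mgst1 (-1.56, SE 0.32, and -1.22, SE 0.32) and the N-acetyltransferase Nat1 (-1.78, SE 0.37, and -1.33, SE 0.36). Ugdh, which makes UDP-glucuronate, was lower by 1.20 (SE 0.26) and 0.83 (SE 0.26) on the log2 scale, and in its list of 6 the counts were 1 higher and 2 lower, then 2 higher and 3 lower. Of 16 glutathione genes 7 and 8 were lower, the ligase subunit Gclm by -0.56 (SE 0.12) and -0.64 (SE 0.12), and 1 was higher in each arm, Ggct (1.06, SE 0.24, and 1.07, SE 0.24). Of 8 sulfate genes 3 were lower and 1 higher in each arm.

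Of 25 regulators 4 were higher and 9 lower without exercise, and 4 higher and 6 lower with exercise. Nr1i2, which encodes PXR, was lower by 0.68 (SE 0.15) and 0.54 (SE 0.15) on the log2 scale, and Rxra, the shared partner of these receptors, changed by -0.50 (SE 0.11) and -0.61 (SE 0.11). Of 9 AHR, CAR and PXR targets 2 and 4 were lower and none higher. Of 14 NRF2 targets 3 were higher and 4 lower without exercise, and 6 higher and 3 lower with exercise, with G6pdx at 1.77 (SE 0.29) and 2.00 (SE 0.30). Of 10 exporters and importers 4 were lower in each arm, Abcc3 by -0.83 (SE 0.15) and -0.59 (SE 0.15), and 1 and 2 were higher, Abcb1a by 1.57 (SE 0.36) and 1.67 (SE 0.37). Of 10 male-biased genes 1 and 3 were lower, and of 6 female-biased genes 2 and 3 were higher and 1 and 0 lower, with Cyp2a4 at 5.63 (SE 1.12) and 5.20 (SE 1.09).

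Cell markers and RNA quality moved with the tumour label as well. Of 10 hepatocyte markers 2 were higher and 5 lower without exercise, and 2 higher and 4 lower with exercise, while the summed level, in which albumin weighs most, rose from 59857 to 87086 CPM to 102337 to 210246 CPM, and from 84306 to 95771 to 129179 to 224651 CPM. Of 8 cholangiocyte markers 3 were higher and 1 lower, then 3 higher and none lower, with sums of 63.2 to 197 against 393 to 1494 CPM and of 53.0 to 136 against 120 to 1473 CPM. Spp1 weighed most in these sums, with means of 98.5 and 862 CPM without and 59.0 and 600 CPM with exercise. Sox9 (1.52 and 1.39) and Spp1 (3.13 and 3.35) were higher, Krt7 (-1.01 and -0.07) and Epcam (-0.32 and 0.27) were not called, and Krt19 was lower without exercise (-1.12). These are genes chosen after their values were seen.

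Of 11 macrophage markers 3 were lower in each arm (334 to 457 against 156 to 512 CPM without exercise). Of 10 stellate cell markers 2 were higher in each arm, of 9 endothelial markers 2 and 3 were higher, of 4 erythroid markers 1 was lower in each arm, and none of 9 T and B cell markers was called. Of 6 mitochondrially encoded genes 5 and 3 were lower, with sums of 35793 to 50042 against 22430 to 34303 CPM and of 43930 to 53785 against 30242 to 40376 CPM. Their part in the tumour differences was not tested.

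Exercise was compared within non-tumour and within tumour pieces of mice on the high-fat diet. None of the 47 members was called in either piece, where 0.0139% and 0.0208% of all genes tested were called. At an unadjusted p under 0.05 edgeR counted 4 members in each, and DESeq2 called 0 in non-tumour and 1 in tumour pieces. Neither of these counts was made over all genes, so they do not set the members apart from other genes. No member's libraries stood fully apart between the arms, against 2.53% (higher) and 2.27% (lower) of all genes in non-tumour and 2.27% and 1.48% in tumour pieces. The replicates do set a limit in most members: the 95% interval of the change lay within 2-fold either way for 28 of 47 genes in each piece, and was wider for the rest, Ugt2b38, Sult2a8, Gsta1, Gstm3 and Sult1e1 among them. The members' median was 0.11 in non-tumour and 0.25 in tumour pieces, against -0.01 and 0.01 over all genes.

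The lowest unadjusted p in non-tumour liver belonged to Sult1b1 (0.52, SE 0.21, adjusted p = 0.531) and Sult1d1 (0.63, SE 0.26, adjusted p = 0.536), both called lower on the high-fat diet. Sult1d1 was at 116, 159, 87.3 and 99.7 CPM without and at 237, 158, 115 and 206 CPM with exercise, which overlap. Gstp1 and Ugt2b38, also called lower on the high-fat diet, and Sult2a8 spread widely among the exercised non-tumour libraries. Gstp1 was at 483, 202, 338 and 201 CPM with exercise (0.53, SE 0.25, adjusted p = 0.597). Ugt2b38 was at 4.74, 0, 1.71 and 0.0542 CPM (2.26, SE 1.12, adjusted p = 0.62). Sult2a8 was at 1209, 135, 618 and 457 CPM (0.61, SE 0.80, adjusted p = 0.906).

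Exercised non-tumour library 1 was the highest of its group for all 3 genes, and library 2 was the lowest for Ugt2b38 and Sult2a8. The diet comparison and the exercise comparison share the non-exercised high-fat libraries, so a value that is low there enters both. In tumours Sult1d1 was at 33.4, 35.6, 57.1 and 83.3 CPM without and at 75.5, 88.2, 73.8 and 100 CPM with exercise, which overlap (0.69, SE 0.26, adjusted p = 0.458). Gstm1, the most abundant member, changed by -0.10 (SE 0.23) in non-tumour and 0.30 (SE 0.23) in tumour pieces.

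**Figure D5:**
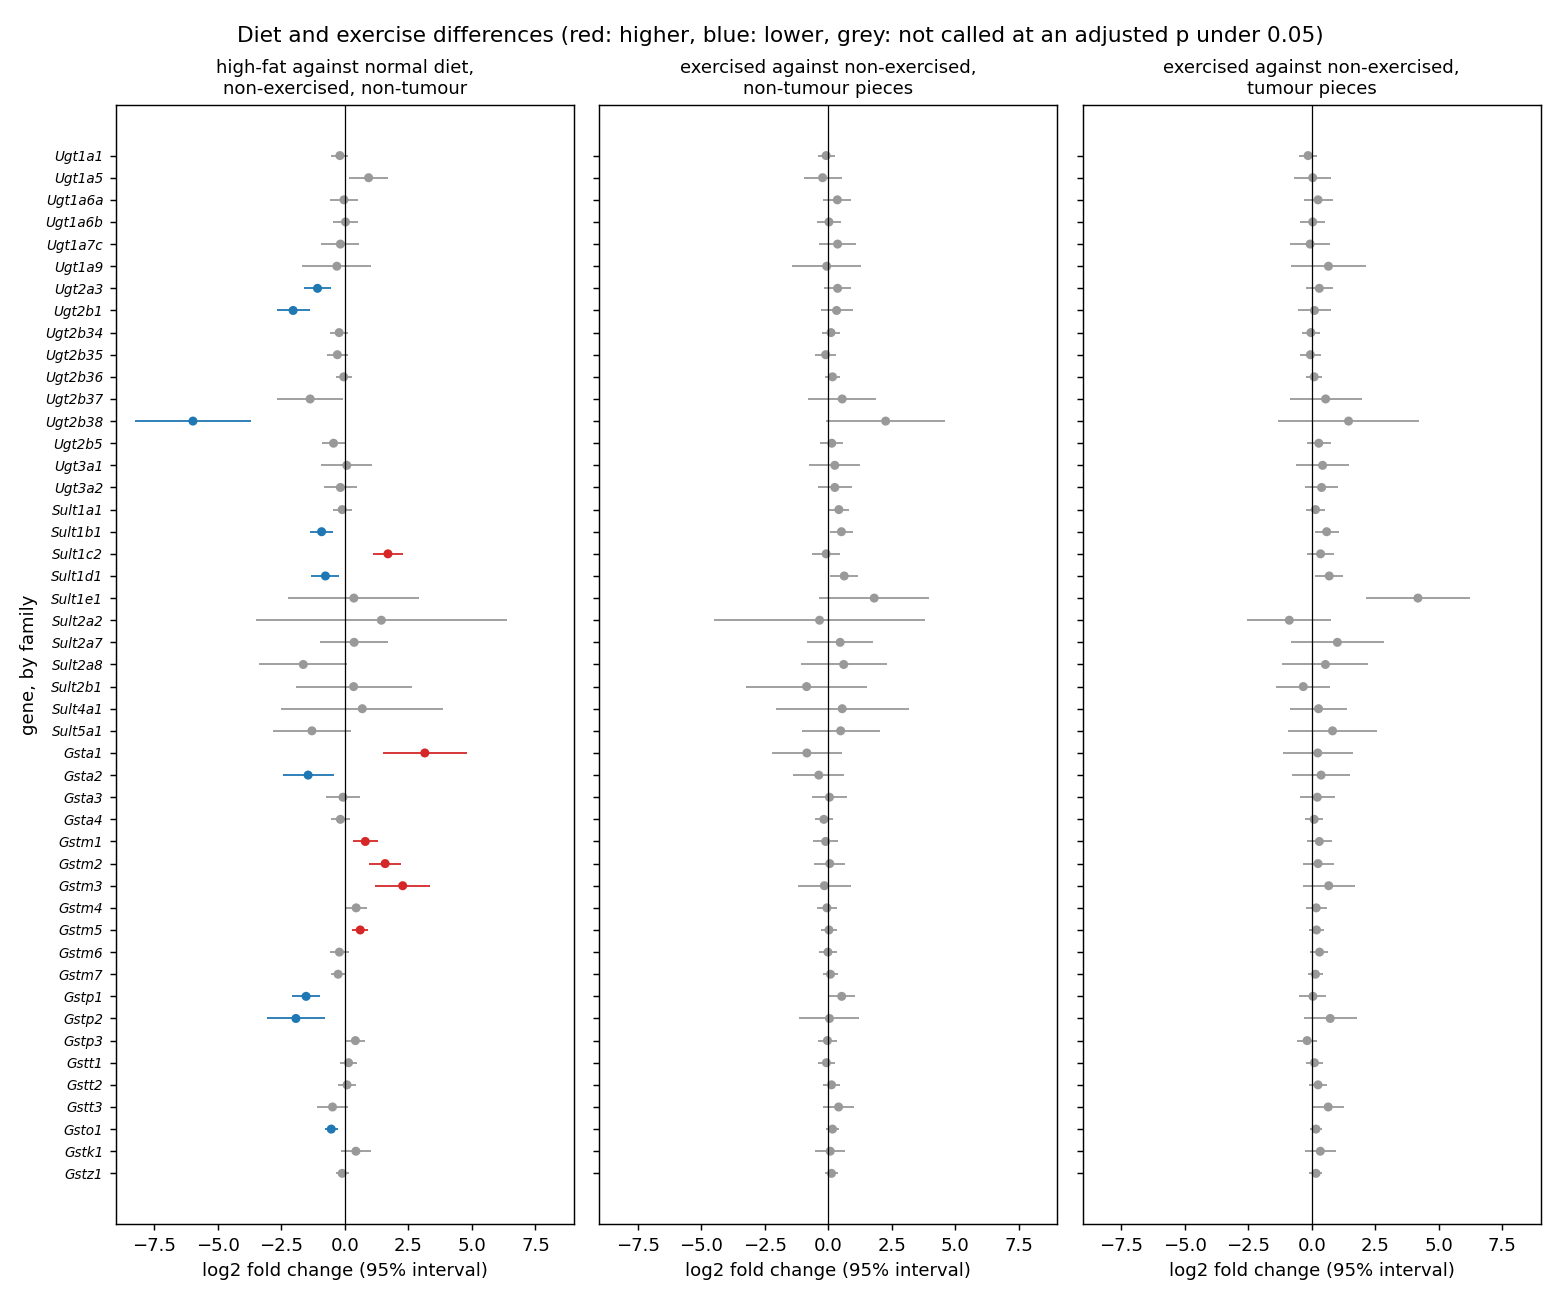
Log2 fold change with its 95% interval for 47 genes (rows by family) in 3 comparisons: high-fat against normal diet, and exercise against none, in non-tumour and then in tumour pieces. Red and blue mark genes called higher and lower; 6 are red and 9 blue in the diet panel, and all are grey in both exercise panels, with Sult1e1 in tumours farthest from 0 (4.18).

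Sult1e1, the estrogen sulfotransferase, stood apart in exercised tumours. It was at 0.618, 0.41, 0.325 and 1.19 CPM in non-exercised tumours and at 1.63, 29.8, 0.551 and 14.2 CPM in exercised tumours. Only 2 of 4 exercised tumours (mice 2 and 4) were far above the rest, with 522 and 269 counts against 27 and 11 in mice 1 and 3. The change was 4.18 (SE 0.97) with an adjusted p of 0.151. It was called by DESeq2 (adjusted p = 0.00102) and by edgeR without exercised tumour library 3 (4.56, adjusted p = 0.0254).

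Within the exercised arm Sult1e1 was higher in tumours (2.88, SE 0.89, adjusted p = 0.019), where the non-tumour values were 0.729, 0.837, 0.454 and 4.22 CPM. Without exercise it was not called (0.52, SE 1.11, adjusted p = 0.748). The exercised call was lost without non-tumour library 1 (adjusted p = 0.0576) or 3 (0.0551) and without tumour library 2 (1.80, adjusted p = 0.115), in a fit of this arm's non-tumour and tumour libraries alone (0.112) and with no filter on low counts (0.0562). Without non-tumour library 4 the change was 4.07 (adjusted p = 0.00798). The difference between the arms, tested as an interaction, was 2.36 (SE 1.43, adjusted p = 1.0).

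The interaction of exercise and tumour was tested for all members, since a call in 1 arm only does not show a difference. None of the 47 was called, none had an unadjusted p under 0.05, DESeq2 called none, and 0% of all genes tested were called by edgeR. The members' interaction values ran from -0.81 to 2.36, with a median of 0.13 against 0.03 over all genes. Gsta1 (1.08, SE 0.93) and Gstm3 (0.82, SE 0.69) had large values with wide errors. The interval lay within 2-fold either way for 21 of the 47 genes.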

How the data were processed

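Per the labels' protocols, RNAiso Plus served for extraction and the TruSeq Stranded mRNA kit for the libraries. The submitters' processing notes name Trim Galore 0.6.10, STAR 2.7.11a, featureCounts of Subread 2.0.5 and the build GRCm39. The deposited values are raw counts of reads per gene; per the file headers featureCounts counted exons by gene, reverse-stranded, with a GENCODE annotation. The headers name no option for multi-mapping reads or reads over several genes, so such reads went uncounted. They name no option for read pairs, and the read layout is not given in the sources used here. Were mates counted separately, 2 counts could be 1 fragment and the counting intervals would be too narrow.

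Symbols came from a gene name table (52083 of 55359 identifiers matched). filterByExpr (minimum count 10) kept 14428 genes. edgeR 4.0.16 (R 4.3.3, limma 3.58.1) fitted 1 mean per group over 20 libraries with TMM scaling and a robust quasi-likelihood model (15 residual degrees of freedom), and all tests were two-sided. The SE is the size of the change divided by the square root of the test's F statistic, so it is approximate. An interval is the change plus or minus the 95% t quantile times its SE. Shared sequence was counted in 50-base stretches of GENCODE transcripts on GRCm38, an older build, and start-site sequences were aligned with Biopython 1.88. The procedure was tested on simulated counts for the diet, for tumours without exercise and for exercise in non-tumour pieces. Among changed genes above a count minimum it recovered 26.9 to 37.3% at 1.5-fold, 70.1 to 79.1% at 2-fold and 81.8 to 84.8% at 4-fold. False calls made up 3.8 to 5.8% of the simulated calls, and many changes under 2-fold would be missed. The simulations gave 131 to 137 calls, while the data gave 3740, 5164 and 2 in these comparisons. The adjusted threshold depends on how many genes change, so the recovered shares do not carry over to the data. With few changed genes, as for exercise, it is stricter, and larger changes can be missed too.

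Members, lists and tests were chosen with earlier results of these data known. The text names the members that passed with the 12 highest and 12 lowest changes, the 2 most abundant of each family, and of each other list up to 4 that passed with the smallest p. Alternatives were other scalings (RLE, upper quartile), DESeq2 1.42.0, other filters, a replicate block, leaving out each library and fitting the compared groups alone. The block is the mouse for tumour against non-tumour, read from the titles; deviations of pieces with 1 mouse number correlated at -0.122 to 0.185 without and at 0.076 to 0.491 with exercise. Tumours with 1 number in the exercised and non-exercised arms correlated at 0.028 to 0.631, although the titles number the mice of each arm separately. Labels do not say that libraries of a group came from separate animals beyond the mouse numbers. Libraries of 1 group differed by a chi-square per gene of at least 9.95 (near 1 under sampling noise alone), and each counted as its own sample. At 10 counts counting error is large, while for abundant members the spread between libraries dominates.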

Additional observations from a re-analysis of the deposited data

Results flagged for a closer look

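In groups of 4 libraries, a library was singled out where its gap to the nearest other exceeded Dixon's 95% critical share of the group's range. This was so in 15 of 190 combinations of a member and a group, and chance alone marks about 1 in 20. Exercised non-tumour library 2 was high for Gsta1 (10.4 CPM, the others 0.608 to 1.19), Gstm5 (9.99, the others 7.76 to 8.12) and Sult2a2 (0.148, the others 0). In the same group library 4 was high for Sult1e1 (4.22, the others 0.454 to 0.837) and library 3 for Ugt1a6b (31.7, the others 29.3 to 29.7).

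Normal-diet library 2 was low for Gstm3 (9.6 CPM, the others 30.7 to 34.1) and held the 1 value above 0 for Sult2a2 (0.0582). Normal-diet library 3 was low for Ugt3a2 (301 CPM, the others 348 to 354), and library 4 was high for Sult2b1 (0.0636, the others 0.0573 to 0.0583, which is 1 count in each). Non-exercised non-tumour library 2 held no count of Sult2b1 (0.0 CPM, the others 0.0968 to 0.112).

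In non-exercised tumours library 4 was high for Gstt3 (29.7 CPM, the others 13 to 14.9) and library 2 low for Ugt1a1 (75.8, the others 97.8 to 102). In exercised tumours library 1 was low for Ugt1a1 (56.6 CPM, the others 92.5 to 95.1), and library 4 was high for Ugt1a5 (55.0, the others 31.4 to 34.5) and for Sult2a7 (1.26, the others 0.121 to 0.285).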

How the results depend on the processing

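In every alternative that tested the gene 12 of the 15 diet calls, 26 of the 33 tumour calls without exercise and 22 of the 30 with exercise were kept, and no called change turned its sign. Sult2a2 and Sult2b1, counted as kept, were not tested in the fit of only the groups compared in either tumour comparison. The kept tumour calls also include Sult4a1 and Sult2a7. Sult2a2, Sult2b1 and Sult4a1 passed the count minimum only through tumour libraries, and Sult2a7 only through the others. That these 4 calls were kept carries no weight. Leaving out 1 library gave 12 to 15 member calls for the diet, 26 to 33 for tumours without and 25 to 31 with exercise, 0 to 0 for exercise in non-tumour pieces, 0 to 1 in tumour pieces and 0 to 0 for the interaction. Exercise in tumours had 1 member called by DESeq2 and 1 without exercised tumour library 3, Sult1e1 in both.

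With the mouse as replicate block 32 members were called for tumours without and 29 with exercise, and the pairing by replicate number alone gave 21 for the diet and 0 for exercise in either piece. Beside the calls it ended, named with each gene, the block by mouse added Gstm4 and Gstt2 without exercise and Sult1a1, Gsta1 and Ugt1a7c with exercise; the labels give no shared animal across diets or exercise arms. A fit of only the groups compared gave 21 diet calls (8 higher and 13 lower), 28 and 22 tumour calls. Low counts limit Sult2a2, Sult2b1, Sult4a1, Sult2a7 and Ugt2b38 most.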
